A study of Mus musculus with 6 samples.

Results

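The genes described here encode the proteins that show antigens to T cells: the mouse major histocompatibility complex (MHC), called H2, with its loading machinery and co-stimulatory partners. They were taken as every expression probe whose gene name on the array begins with "H2-" or equals Cd74, B2m, Tap1, Tap2, Tapbp, C2ta (the older name of Ciita), Cd80, Cd86, Cd1d1 or Ifngr1. This gave 70 of the 41174 probes on the array, and they stand for 46 of its 27962 gene names. Class I heavy chain genes made up 25 of the 46, class II chain genes 9, and the remaining 12 were loading, co-stimulation, receptor and H2-region genes.

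The RNA came from primary cultures of C4HD, a hormone-dependent ductal mammary tumour of female BALB/c mice. C4HD first arose under the progestin medroxyprogesterone acetate and has been passed from mouse to mouse under the same progestin, and all 6 cultures came from tumours grown that way. In 1 group the cultures received 30 nM of the miR-16 precursor pre-miR-16, and in the other 30 nM of pre-miR-Control, a scrambled precursor that gives no known mammalian microRNA; both were delivered with the lipid reagent siPORT NeoFX for 48 h. Each group had 3 biological replicates and 1 single-colour Agilent array per replicate, and the comparison asks which transcripts differ once miR-16 is raised. Tumours were digested and the epithelial fraction was enriched by sedimentation, so that fibroblasts and leukocytes of the host mouse can remain. C4HD is a single transplanted tumour line, and the sources used here do not say whether the replicates came from separate mice, so the p-values measure only the spread between these samples.

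MHC class I molecules pair a heavy chain with beta-2 microglobulin and carry peptides of the cell's own proteins, cut by the proteasome and pumped into the endoplasmic reticulum by the TAP transporter, to CD8 T cells. Nearly all nucleated cells make them. Class II molecules pair an alpha with a beta chain, are guarded by the invariant chain until DM exchanges it for a peptide of ingested protein, and present to CD4 T cells. They are made mainly by dendritic cells, macrophages and B cells under the coactivator Ciita, and in epithelial cells after interferon gamma. Nonclassical class I genes of the Q, T and M regions lie beside the classical ones on chromosome 17. BALB/c mice carry the d haplotype of H2, whereas the mouse reference genome is that of C57BL/6, of the b haplotype.

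The transfected precursor gives the mature microRNA below, shown from RefSeq because its seed, bases 2 to 8, in capitals, sets which messenger RNAs it can pair with.
mmu-miR-16-5p: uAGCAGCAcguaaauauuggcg
The matching letters TGCTGCT occur in 0 of the 70 member probes and in 224 of all 41174 probes (0.544%). Probes cover 60 bases of a transcript, and these letters were looked for nowhere else.

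Array probes of the class I genes resemble each other, which bears on how far their values are separate measurements. Of the 38 class I probes, 10 shared a run of at least 20 bases with another probe of the array, and 6 shared one with a probe of another member gene. No class II probe (0 of 15) and no other member probe (0 of 17) did. The longest shared run joins the probes named H2-Q5 and H2-Q10, with the 35 identical bases in capitals.
H2-Q5: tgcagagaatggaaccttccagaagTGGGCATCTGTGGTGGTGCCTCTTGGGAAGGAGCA
H2-Q10: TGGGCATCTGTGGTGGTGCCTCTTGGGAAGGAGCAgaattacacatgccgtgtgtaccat
The probes named H2-Q7 and H2-T23 align over 59 bases, 50 of them identical. A window of 30 bases of each is printed with the 6 bases that differ in capitals.
H2-Q7: tgatgaaTaggaggTgaAacaCaggtgGaC
H2-T23: tgatgaaGaggaggAgaCacaTaggtgTaA
The third probe of H2-K1 and the second probe of H2-Q10 align over 52 bases with 40 identical, and the 7 differing bases of a 30-base window are in capitals.
H2-K1: gtgggagcaggctggtgAAgcagagAGACT
H2-Q10: gtgggagcaggctggtgCTgcagagTATTA
How much each class I probe reads of its neighbours' transcripts was not tested, so the gene names below are those of the probes.

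Each level is the log2 of a probe's signal over the 75th percentile of its array, given in the order of replicates 1 to 3, and changes are log2 fold changes ± SE of pre-miR-16 over pre-miR-Control, called at an adjusted p under 0.05. The 75th percentile lay between 625 and 909 signal units, 57.2% to 64.0% of spots passed the scanner software's test of lying well above background, and 0 were saturated. Of 23827 probes tested, 44.6% were called (15.8% rose and 28.8% fell), and the median change was -0.16. The log2 level of the spike-in probes was 1.79 to 2.16 on pre-miR-16 arrays and 2.36 to 2.51 on control arrays. Scaling on them instead moved every change up by 0.40, the median of all probes to 0.24 and the share of rises among calls from 35.5% to 82.7%. The sources used here do not state how much spike-in RNA was added. The label of an epithelial culture was checked against Krt8, Krt18, Krt19, Epcam, Cdh1 and Esr1, and all of these luminal genes were well above background on all 6 arrays. The macrophage gene Lyz2 and the fibroblast gene Col1a2 were too, so the check does not show that other cells were absent.

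Every class I gene that was called fell, whereas the called class II genes moved both ways, and the difference between the classes itself was not tested. Of the 15 class I genes tested, 13 fell and 0 rose in limma with 75th-percentile scaling (14 and 0 at an unadjusted p under 0.05), whereas with spike-in scaling 0 passed the threshold in either direction (1 fell at an unadjusted p under 0.05). Of the 4 class II genes tested, 2 rose (H2-Ab1 and H2-DMb1), 1 fell (H2-Eb1, not called with spike-in scaling) and H2-DMa was not called. H2-DMb1 lay well above background in pre-miR-16 cultures only and was tested through them, and among the 3 class II genes above background on all 6 arrays, 1 rose and 1 fell. Over all tested probes 28.8% fell and 15.8% rose, and pre-miR-16 lay below every control in 38.7% and above every control in 19.8%. The 4 class II genes did not move as a block, since their changes ran from -0.87 to 4.01. The plot of levels by array shows each gene. In RNA of whole cultures, fewer cells of a type and less RNA per cell cannot be told apart.

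**Figure D1:**
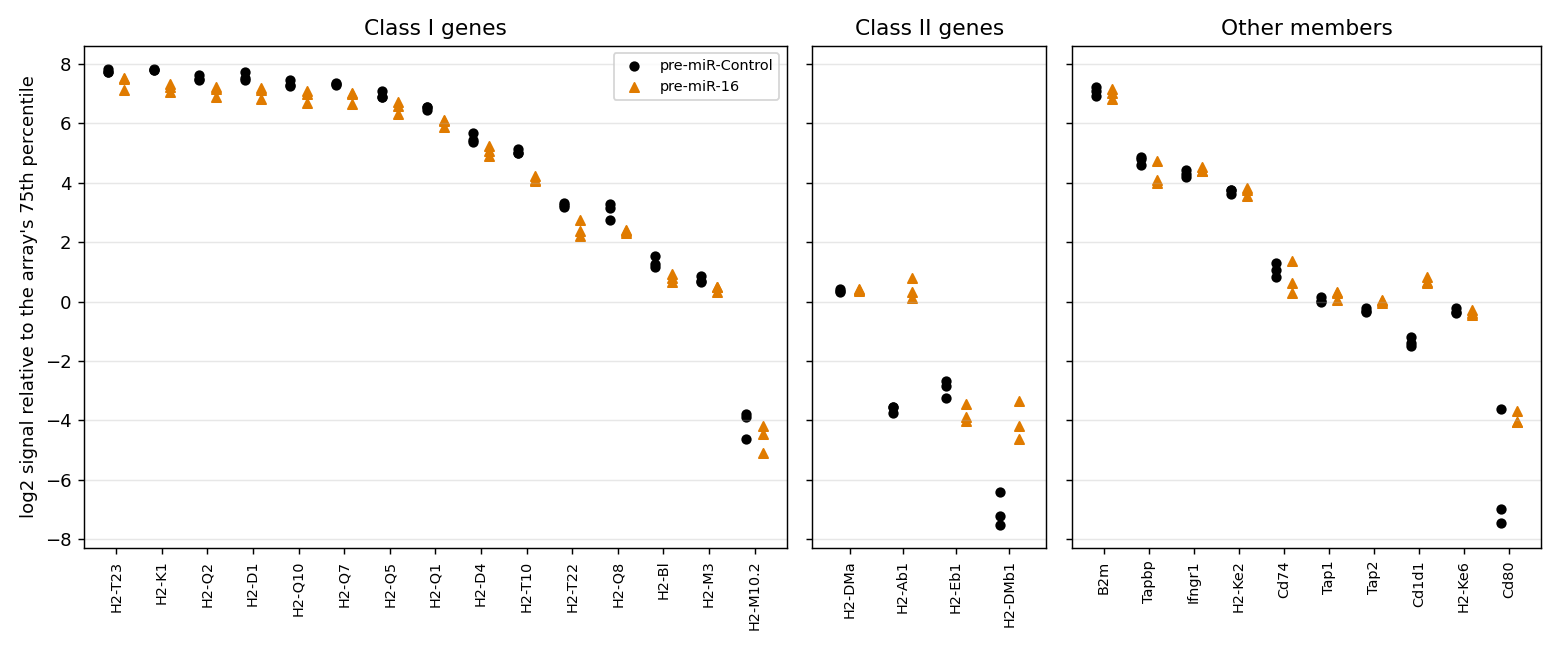
Levels of the 29 tested member genes on each array (log2 signal relative to the array's 75th percentile), with 3 pre-miR-Control arrays as circles and 3 pre-miR-16 arrays as triangles; levels of different genes come from different probes and are not comparable. In 14 of 15 class I genes all triangles lie below all circles on this scale, against 38.7% of all tested probes. None of these genes passes the test's threshold once arrays are scaled on spike-ins. H2-Ab1, H2-DMb1 and Cd1d1 lie higher in pre-miR-16, and H2-DMb1 was tested only through those cultures.

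Among the classical class I genes, which present peptides to CD8 T cells, H2-K1 and H2-D1 both fell with 75th-percentile scaling, and with spike-in scaling neither was called. H2-K1 read 7.82, 7.79 and 7.78 in controls and 7.33, 7.21 and 7.06 in pre-miR-16 cultures. All 3 pre-miR-16 arrays lay below all controls, and the change was -0.60 ± 0.10 (0.661 of control, adjusted p = 0.00518). H2-K1 has 10 spots per array for this probe, at chr17:32074445-32074504 of the mm7 build that the files use. Its other probes read -0.40 ± 0.14 (adjusted p = 0.0540) and -0.38 ± 0.14 (adjusted p = 0.0688), just short of the threshold, with no overlap between the groups in either. H2-D1 read 7.73, 7.50 and 7.44 in controls and 7.11, 7.18 and 6.80 in pre-miR-16 cultures. The groups did not overlap, with a change of -0.52 ± 0.14 (0.696 of control, adjusted p = 0.0254). A second probe named H2-D1, drawn from another messenger RNA (X03051), was not well above background on any array. H2-D4, which RefSeq lists as a transcribed pseudogene in C57BL/6, fell by 0.42 ± 0.13 (adjusted p = 0.0424). With spike-in scaling the changes of H2-K1, H2-D1 and H2-D4 were -0.19, -0.12 and -0.02, and H2-D4 was not called either. H2-K1 stayed called without any 1 array, and H2-D1 lost the call when control replicate 1 or 2, or replicate 1 or 3 of pre-miR-16, was left out (adjusted p from 0.0569 to 0.0717).

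The starts of H2-K1 and H2-D1, genes that moved together, carry the same arrangement of motifs in the RefSeq promoter windows (GRCm38.p6, 250 bases before to 50 after each gene's first listed start). The stretches below show it, with capitals for GGGGATTCCC, known as the NF-kB site of the class I enhancer, and for CCAAT on either strand (ATTGG on the other). H2-K1 is printed from chr17:34000325-34000468 on the minus strand and H2-D1 from chr17:35262913-35263055 on the plus strand.
H2-K1: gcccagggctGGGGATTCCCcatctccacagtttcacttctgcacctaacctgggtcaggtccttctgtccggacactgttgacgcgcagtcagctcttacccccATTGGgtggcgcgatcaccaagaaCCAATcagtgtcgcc
H2-D1: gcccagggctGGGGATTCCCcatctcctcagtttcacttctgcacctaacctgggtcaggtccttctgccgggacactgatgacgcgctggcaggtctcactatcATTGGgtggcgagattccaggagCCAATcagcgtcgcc
GGGGATTCCC, taken from the H2-K1 window and searched on both strands, was in the windows of 3 members, H2-K1, H2-D1 and H2-Q7, and in 0.107% of 32851 promoter windows. CCAAT was in 28 of the 32 member genes with a window, 16 of 18 class I and 7 of 7 class II, against 37.4% of all windows. The motifs were chosen after these sequences had been read, and a match is a description only.

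The Q-region genes, nonclassical neighbours of H2-D1, all fell: 6 of 6, with changes from -0.71 to -0.41, none of them called with spike-in scaling. H2-Q8 read 3.27, 3.16 and 2.76 in controls and 2.37, 2.29 and 2.40 in pre-miR-16 cultures. Its groups did not overlap, and the change was -0.71 ± 0.15 (0.611 of control, adjusted p = 0.0110). H2-Q1 read 6.56, 6.53 and 6.43 against 6.06, 6.11 and 5.87, a change of -0.49 ± 0.10 (adjusted p = 0.0108), and its second tested probe fell by 0.44 ± 0.12 (adjusted p = 0.0237). H2-Q2 read 7.61, 7.49 and 7.43 against 7.13, 7.21 and 6.89, a change of -0.43 ± 0.12 (adjusted p = 0.0277). H2-Q5, H2-Q7 (the Qa-2 antigen) and H2-Q10 (a secreted form made mainly in liver) had changes of -0.41, -0.43 and -0.42. The probes of H2-Q5 and H2-Q10 share the run printed above, and how far these values are separate was not tested. H2-Q1 and H2-Q8 stayed called without any 1 array, as H2-K1 did, while H2-Q2, H2-Q5, H2-Q7 and H2-Q10 were each called in 1 of those 6 fits, the one without replicate 2 of pre-miR-16.

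The T-region genes held the largest class I changes. H2-T10 and H2-T22 encode ligands of some gamma-delta T cells and bind no peptide. H2-T10 read 4.99, 5.13 and 4.99 in controls and 4.09, 4.23 and 4.06 in pre-miR-16 cultures. Its groups were far apart for their spread (SD 0.08 and 0.09, n = 3 each), and it fell by 0.91 ± 0.10 (0.532 of control, adjusted p = 0.000916). RefSeq lists H2-T10 as a transcribed pseudogene in C57BL/6. H2-T22 read 3.26, 3.30 and 3.17 against 2.37, 2.73 and 2.20, again without overlap, with a change of -0.81 ± 0.15 (adjusted p = 0.00680), and its second probe fell by 0.83 ± 0.19 (adjusted p = 0.0138). With spike-in scaling the changes of H2-T10 and H2-T22 were -0.51 (adjusted p = 0.0653) and -0.41 (adjusted p = 0.127). H2-T23, which encodes Qa-1, the ligand of CD94/NKG2 receptors of natural killer cells, was not called: it read 7.83, 7.71 and 7.73 against 7.48, 7.52 and 7.10, a change of -0.39 ± 0.14 (adjusted p = 0.0579), without overlap. Left without pre-miR-16 replicate 2, H2-T23 passed the threshold (-0.47, adjusted p = 0.0366). H2-T3 was well above background on 1 control array and H2-T24 on at most 2 control arrays, and neither was tested.

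The blastocyst gene H2-Bl read 1.53, 1.25 and 1.16 in controls and 0.79, 0.94 and 0.66 in pre-miR-16 cultures, a change of -0.52 ± 0.14 (adjusted p = 0.0234) without overlap. Its other tested probes, which share 30 bases with each other, read -0.65 ± 0.48 (adjusted p = 0.304) and -0.62 ± 0.24 (adjusted p = 0.0809). H2-M3, which presents formylated bacterial and mitochondrial peptides, read 0.66, 0.87 and 0.69 against 0.47, 0.47 and 0.32. That is a change of -0.32 ± 0.10 (adjusted p = 0.0480), the smallest among the class I genes called, and with spike-in scaling the direction flipped to 0.09 (adjusted p = 0.75). Its second probe did not pass, at -0.13 ± 0.17 (adjusted p = 0.551), with overlap. H2-M10.2, of the M10 family known from vomeronasal neurons, read -3.77, -4.63 and -3.88 against -5.11, -4.18 and -4.45, with overlap and a change of -0.49 ± 0.32 (adjusted p = 0.255). Of the 10 M-region genes, 7 were not well above background on any array, and H2-M9 was above it on 1 control array.

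Counted by probe, 15 of 24 tested class I probes fell, 9 were not called and 0 rose, against 28.8% falls over all tested probes. In 21 of 24 the groups did not overlap, with pre-miR-16 lower, against 38.7% of all tested probes. Among the 1807 tested probes with a mean level over 4, a bound chosen after the levels were seen, 28.9% fell, 8.25% rose and the median change was -0.16. On the main scale the class I genes lay below the median of all probes in 15 of 15 cases, and the class I median was -0.32 relative to it. Spike-in scaling moves every change by the same amount, so it cannot alter either value and is no check on them. The count of 13 class I falls was 7 with quantile normalization (45.1% of all probes called) and 4 with slide as a block (30.9%). It ranged from 5 to 14 when 1 array was left out: 5 without control replicate 1 or 2 or without replicate 1 or 3 of pre-miR-16, 7 without control replicate 3, and 14 without replicate 2 of pre-miR-16. H2-K1, H2-T10, H2-T22 and H2-Q8 were called in each of these fits, though not with spike-in scaling. H2-Bl kept its call without control replicate 3 or replicate 2 of pre-miR-16, and H2-D4 and H2-M3 only without the latter.

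Among the tested member genes, taken at their brightest probes, the largest called rise was in a class II chain. H2-Ab1, the beta chain of the I-A molecule, read -3.75, -3.54 and -3.55 in controls and 0.32, 0.78 and 0.11 in pre-miR-16 cultures. Every pre-miR-16 array lay above every control, and the change was 4.01 ± 0.19 (16.1-fold, adjusted p = 2.56e-05). The probe lies at chr17:32346939-32346998 of mm7. The other 3 probes of H2-Ab1 rose by 3.19 ± 0.22, 3.36 ± 0.56 and 3.61 ± 0.30, and the last pair of them did not rise well above background in any control. For such probes the fold is a lower bound: the control mean is set, array by array, to the lowest signal of any probe well above background or to the probe's own signal, whichever is higher. It gave at least 3.39-fold and at least 3.1-fold. The bound applies to the processed signal only, and under the offset background correction normexp the same probes changed by 0.70 and 0.74 and the first probe by 2.92. The pair of dim probes cover overlapping stretches of the transcript from different records, and 30-base windows are printed with the 2 bases that differ in capitals.
H2-Ab1: ttcaAgggcgagtgctactAcaccaacggg
H2-Ab1: ttcaTgggcgagtgctactTcaccaacggg
The first of these probes read -5.51, -7.48 and -7.57 in controls and -3.65, -3.18 and -3.65 in pre-miR-16 cultures. The other read -6.63, -7.49 and -7.57 against -3.80, -3.21 and -3.86, so both probes read higher on every pre-miR-16 array than on any control.

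Its partner chain was not detected. H2-Aa, the alpha chain of I-A, read -7.44, -6.28 and -7.45 in controls and -7.67, -7.37 and -7.05 in pre-miR-16 cultures at its brighter probe. Neither H2-Aa probe was well above background on any array, so no level or fold can be given. Whether these probes match the d haplotype that BALB/c mice carry was not tested. The beta chain of I-E moved against H2-Ab1: H2-Eb1 read -2.67, -2.83 and -3.24 in controls and -3.88, -3.45 and -4.01 in pre-miR-16 cultures. Its groups did not overlap, and it fell by 0.87 ± 0.21 (0.548 of control, adjusted p = 0.0167), at chr17:32392430-32392891 of mm7, a span wider than the probe. H2-Eb1 was not called with spike-in scaling (-0.46, adjusted p = 0.120), when slide entered as a block (-0.76, adjusted p = 0.0872), or without control replicate 2 or replicate 1 or 3 of pre-miR-16 (adjusted p from 0.0517 to 0.0603). H2-Ea, the alpha chain of I-E, read -7.32, -7.16 and -7.32 against -7.54, -7.22 and -6.98, not well above background on any array.

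The DM molecule loads peptides onto class II, and its chains also differed. H2-DMb1 read -7.22, -6.42 and -7.51 in controls, not well above background on any, and -3.36, -4.62 and -4.19 in pre-miR-16 cultures, above it on all 3. It rose at least 2.29-fold (fitted change 3.00 ± 0.40, adjusted p = 0.00212), and under normexp it changed by 0.51, which is less than this bound (adjusted p = 0.0246). H2-DMa read 0.34, 0.31 and 0.42 against 0.42, 0.34 and 0.37, with overlap and a change of 0.02 ± 0.09 (adjusted p = 0.884). H2-DMb2, a second DM beta gene, read -6.60, -7.27 and -7.46 against -7.47, -7.38 and -7.07. The DO chains, which hold DM back, were H2-Oa at -5.35, -6.51 and -6.57 against -7.01, -5.57 and -5.64, and H2-Ob at -7.26, -7.05 and -7.24 against -7.49, -7.16 and -6.86. H2-DMb2, H2-Oa and H2-Ob were not well above background on any array.

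H2-Eb1 and H2-DMb1 are shown by their promoter stretches because they share a class II motif and moved in opposite directions on the main scale. Capitals mark TAGNAACTGATG, the letters these windows share at the X box bound by the RFX complex, and CCAAT on either strand. H2-Eb1 is printed from chr17:34305764-34305846 and H2-DMb1 from chr17:34153085-34153144, both on the plus strand of GRCm38.p6, from RefSeq.
H2-Eb1: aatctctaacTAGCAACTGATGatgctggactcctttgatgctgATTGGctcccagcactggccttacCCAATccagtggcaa
H2-DMb1: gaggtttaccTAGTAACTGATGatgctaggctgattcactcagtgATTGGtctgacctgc
No other member among the 32 with a window held TAGNAACTGATG, and 0.0426% of all windows hold it on either strand. The RefSeq table used gave no window for H2-Ab1. TTCNNNGAA, the gamma-activated site, searched on both strands, was in the windows of H2-DMb2, H2-M11 and H2-M3 and in 8.3% of all windows.

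The class II accessory genes did not pass the test. Cd74, the invariant chain on chromosome 18 that escorts class II molecules, read 1.30, 1.07 and 0.83 in controls and 0.27, 1.37 and 0.63 in pre-miR-16 cultures. Pre-miR-16 replicate 2 lay above every control and the other two arrays below, and the change was -0.31 ± 0.29 (adjusted p = 0.415). Left without pre-miR-16 replicate 2, Cd74 passed the threshold at -0.62 (adjusted p = 0.0388), and within slides it was -1.03 on slide 1 and 0.42 on slide 2. C2ta (Ciita), the coactivator of class II genes, read -7.53, -7.34 and -7.51 against -7.78, -6.03 and -7.14, not well above background on any array.

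**Figure D2:**
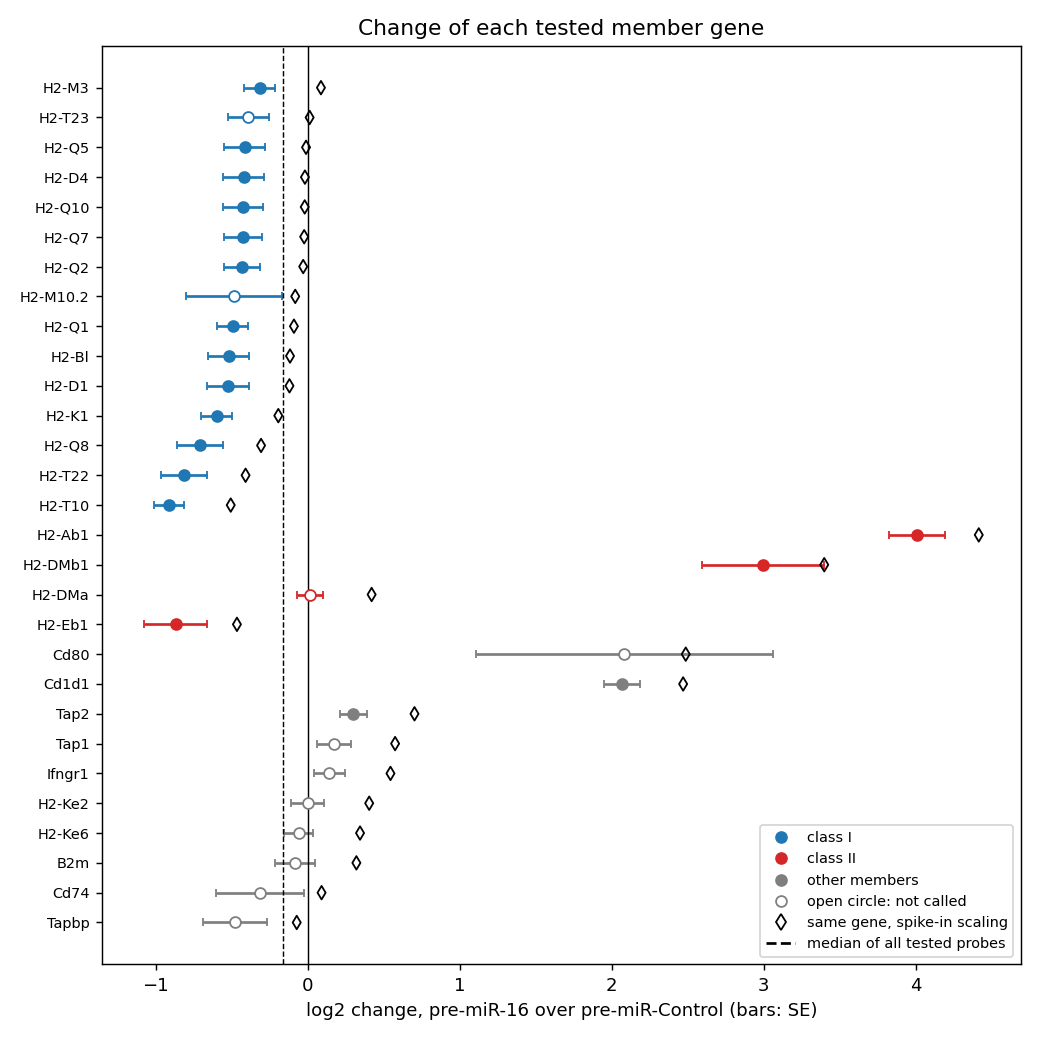
Log2 changes ± SE of the 29 tested member genes, pre-miR-16 over pre-miR-Control, with filled circles for called genes, diamonds for the same gene scaled on spike-ins and a dashed line at the median of all tested probes (-0.16). The 15 class I genes lie left of that line, from -0.91 to -0.32, but around 0 with spike-in scaling, where none is called. H2-Ab1 and Cd1d1 lie far to the right with either scaling. H2-DMb1 is plotted there at its fitted change, but it was above background on 0 control arrays and was tested only through pre-miR-16 cultures. Its bound is 2.29-fold, and under normexp it changed by 0.51.

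Genes that serve class I molecules differed from one another and between their own probes. B2m, the beta-2 microglobulin light chain, read 6.90, 7.21 and 7.09 in controls and 7.15, 6.81 and 6.99 in pre-miR-16 cultures at its brightest probe. The groups overlapped, and the change was -0.08 ± 0.13 (adjusted p = 0.638). A second B2m probe, with 10 spots per array, read -0.20 ± 0.11 (adjusted p = 0.184), but the third, drawn from another record (AK086184), read 1.10, 1.58 and 1.53 against 0.53, 0.92 and 0.46. That probe fell by 0.77 ± 0.18 (adjusted p = 0.0168, and 0.246 with spike-in scaling), so the probes of B2m disagree. Taken as the mean of its probes, B2m was called, with a change of -0.35 (adjusted p = 0.036).

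The peptide transporter is a pair of Tap1 and Tap2. Tap1 read 0.15, -0.03 and 0.00 in controls and 0.05, 0.31 and 0.28 in pre-miR-16 cultures, with overlap and a change of 0.17 ± 0.11 (adjusted p = 0.254). Tap2 read -0.21, -0.35 and -0.31 against 0.04, 0.02 and -0.03, without overlap, and rose by 0.30 ± 0.09 (adjusted p = 0.0346). It lost the call when slide entered as a block (adjusted p = 0.104) and without any 1 array other than pre-miR-16 replicate 2 (adjusted p from 0.0508 to 0.131). Tapbp, or tapasin, which bridges TAP and class I, read 4.85, 4.60 and 4.80 against 4.10, 4.73 and 3.99, a change of -0.48 ± 0.21 (adjusted p = 0.112). Pre-miR-16 replicate 2 alone reached the controls, and without it Tapbp passed the threshold at -0.70 (adjusted p = 0.00542). The second Tapbp probe read -0.24 ± 0.21 (adjusted p = 0.392).

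Among antigen-presenting genes outside the H2 region, Cd1d1 had the clearest rise. Cd1d1, which presents lipids to natural killer T cells, read -1.50, -1.20 and -1.40 in controls and 0.66, 0.83 and 0.61 in pre-miR-16 cultures. No control reached any pre-miR-16 array, and the change was 2.07 ± 0.12 (4.19-fold, adjusted p = 6.11e-05), at chr3:87108721-87108780 of mm7. It was 2.16 within slide 1 and 2.13 within slide 2, and was called without any 1 array.

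The co-stimulatory ligands of CD28, Cd80 and Cd86, were dim. The brighter Cd80 probe read -3.60, -6.98 and -7.46 in controls and -4.07, -4.05 and -3.67 in pre-miR-16 cultures. Pre-miR-Control replicate 1 alone reached the pre-miR-16 level, and the change was 2.08 ± 0.98 (adjusted p = 0.129), or 3.29 (adjusted p = 0.000307) without that array. Cd80 was also called with spike-in scaling (2.49, adjusted p = 0.0381) and as the mean of its probes (3.27, adjusted p = 0.00226), and in the latter case its dim probe, described next, enters the mean. The other Cd80 probe read -7.55, -7.42 and -7.01 in controls, not well above background on any, against -2.92, -2.74 and -2.96. It rose at least 5.21-fold (fitted change 4.45 ± 0.16, adjusted p = 1.40e-05) and by 1.07 under normexp. Cd86 was above background on 0 control arrays and on 2 of 3 pre-miR-16 arrays at both of its probes. It was not tested, and it read -5.39, -7.22 and -7.41 against -5.10, -4.27 and -4.99 at the first probe, which gave at least 1.38-fold, and at least 1.16-fold at the second. All pre-miR-16 arrays were above all controls at both probes. Over the 45 tested member probes, 8 had every pre-miR-16 array above every control, a share close to the 19.8% of all tested probes. They include the dim pair of H2-Ab1 probes, H2-DMb1 and the dimmer Cd80 probe, all above background on 0 control arrays. Those probes were tested only through the pre-miR-16 cultures, where they are high.

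Ifngr1, the ligand-binding chain of the interferon gamma receptor, read 4.28, 4.20 and 4.42 in controls and 4.53, 4.39 and 4.40 in pre-miR-16 cultures, with overlap and a change of 0.14 ± 0.10 (adjusted p = 0.296). H2-Ke2, now called Pfdn6, a prefoldin subunit, and H2-Ke6, a hydroxysteroid dehydrogenase, lie in the H2 region and present no antigen. Their changes were 0.00 ± 0.11 (adjusted p = 0.992) and -0.06 ± 0.10 (adjusted p = 0.647), each with overlap. Over the 10 tested genes outside the chains, 2 rose, 0 fell (0 at an unadjusted p under 0.05) and 8 were not called. Their median change was 0.07 (0.48 with spike-in scaling). Over all tested probes 15.8% rose and 28.8% fell.

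**Figure D3:**
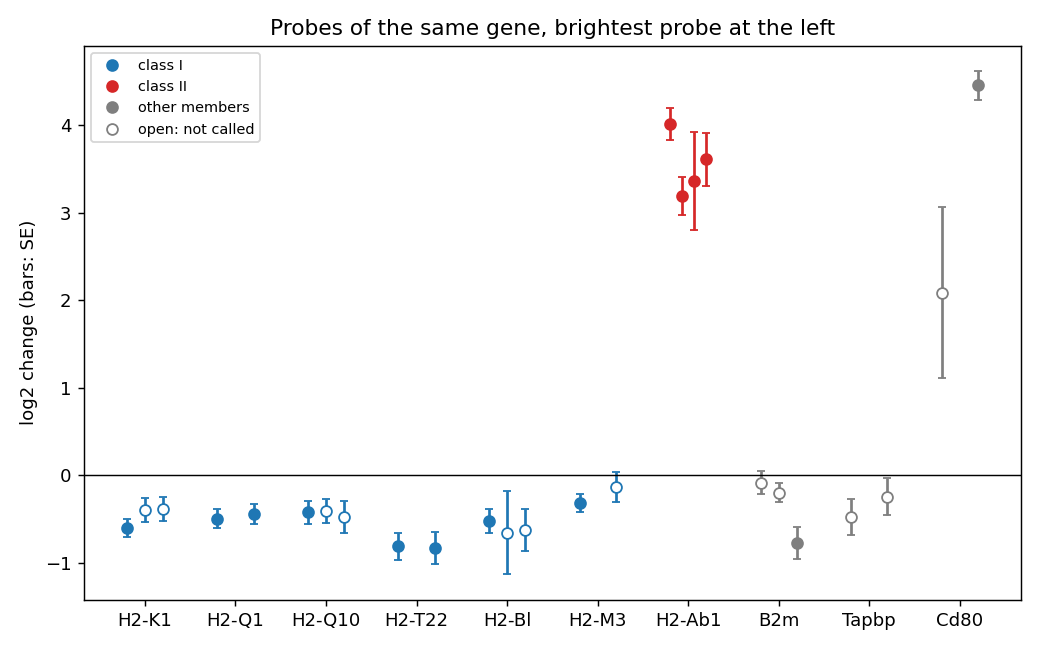
Log2 changes ± SE of each tested probe for the member genes with more than 1 tested probe, brightest probe at the left, filled where called. The 4 probes of H2-Ab1 all rose, with fitted changes from 3.19 to 4.01. The dim pair of them was above background on 0 control arrays and was tested only through the pre-miR-16 cultures. For that pair the bounds are 3.39-fold and 3.1-fold. Class I probes lie below 0 on the main scale with none called under spike-in scaling, and the probes of B2m and Cd80 differ in their calls.

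The class II median change of 1.51 rests on few genes and on how dim signals are treated. With the bound in place of the fitted change of H2-DMb1 it was 0.61, and over the 3 genes above background on all 6 arrays it was 0.017. It was 0.25 under normexp, 0.31 with the deposited processed values and 1.91 with spike-in scaling, whereas the class I median was -0.42 in the first pair of these and -0.08 in the last. Within slide 1, which held a control and a pre-miR-16 array, the class I median was -0.51 and the class II median 1.97. Within slide 2 they were -0.27 and 1.16, against -0.18 for all probes on either slide. Slide 3 held pre-miR-16 replicate 3 only and gives no value.

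Other genes of the class I route fell and rose within the same list. Of 9 genes measured, 4 fell, 2 rose and 3 were not called, with a median of -0.32, against 28.8% falls and 15.8% rises over all tested probes. With slide as a block 2 fell (Psmb8 and Psmb9) and 1 rose (Calr), with a median of -0.15, while with spike-in scaling 0 fell (1 at an unadjusted p under 0.05), 2 rose and the median was 0.09. The falls were the immunoproteasome subunits Psmb8 (-0.74, adjusted p = 0.00463) and Psmb9 (-0.87, adjusted p = 0.00225), the proteasome activator Psme1 (-0.70, adjusted p = 0.0111) and the peptide-trimming enzyme Erap1 (-0.54, adjusted p = 0.0250). The rises were the loading chaperones Calr (1.06, adjusted p = 0.00123) and Pdia3 (0.36, adjusted p = 0.0166).

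Of 9 measured genes of the class II route, 4 rose, 1 fell and 4 were not called, with a median of 0.08. This compares with 15.8% rises and 28.8% falls over all tested probes. With spike-in scaling, where 5557 of all 23827 probes rose and 1160 fell, the median was 0.49. There 4 of the route's genes rose and 0 fell, the latter also at an unadjusted p under 0.05. Each rise was a lysosomal enzyme of antigen processing: Ctss (4.21, adjusted p = 0.000298), the protease that degrades the invariant chain, Lgmn (1.51, adjusted p = 0.000113), Ifi30 (1.15, adjusted p = 0.000697) and Ctsl (0.65, adjusted p = 0.00234). Rfx5, a subunit of the factor that binds the X box, fell by 0.52 (adjusted p = 0.0106), a fall that was not called with spike-in scaling.

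In the interferon gamma list 5 of 10 tested genes rose, 2 fell and 3 were not called, with a median of 0.46, against 15.8% rises and 28.8% falls over all tested probes. The chemokine genes Cxcl10 (2.95, adjusted p = 0.00170) and Cxcl9 (at least 5.72-fold, adjusted p = 1.28e-05, though 1.22 on the log2 scale under normexp) rose, as did the feedback inhibitor Socs1 (1.64, adjusted p = 0.00153), the second receptor chain Ifngr2 (1.17, adjusted p = 0.00264) and Gbp2 (0.77, adjusted p = 0.0108). Irf1, an activator of class I genes, fell by 0.71 (adjusted p = 0.0414), and Irf2 fell by 0.35 (adjusted p = 0.0299); with spike-in scaling 0 of the 10 fell (0 at an unadjusted p under 0.05). Neither Irf1 (adjusted p = 0.105) nor Irf2 (adjusted p = 0.0566) was called with slide as a block. Ifng was not well above background on any array.

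Among markers of cells that present antigen, most macrophage markers rose, while no dendritic cell marker was called. Of the 10 macrophage markers 9 rose, against 15.8% of all tested probes. Among them were Lyz2 with 4.89 and C1qc with 6.09 (4.88 and 4.18 under normexp), and only Csf1r was not called (-0.48, adjusted p = 0.173). The summed level of the macrophage list was 4.08 to 4.52 on control arrays and 7.84 to 8.13 on pre-miR-16 arrays, and in controls Mrc1 never lay well above background. The median change of the list was 3.70, or 3.30 with dim genes at their bound, and 1.96 under normexp, where 9 of 10 rose as well. Of 7 dendritic cell markers measured, only Xcr1 was tested and it was not called (-0.25, adjusted p = 0.343). Itgax, Flt3, Clec9a, Cd209a and Siglech were not well above background on any array, and the list's summed level was -2.14 to -1.69 on control arrays and -2.36 to -1.86 on pre-miR-16 arrays. Among the B cell markers reported, only Cd79b was called, with a rise of 2.66 (0.44 under normexp). Cd79b lay well above background on 1 control array and on all 3 pre-miR-16 arrays. Ms4a1 and Pax5 were not well above background on any array. Of 5 T cell markers 1, Cd3e, was tested, and it was not called (-0.05, adjusted p = 0.785). The leukocyte gene Ptprc rose at least 12.4-fold on the processed signal, and under normexp by 1.84 on the log2 scale, which is less than this bound.

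Fibroblast and epithelial markers moved as well. All 8 fibroblast markers rose, against 15.8% of all tested probes. The summed level of these markers was 3.97 to 4.10 on control arrays and 7.91 to 8.32 on pre-miR-16 arrays. Of the 6 luminal epithelial markers 5 fell, against 28.8% of all tested probes, with summed levels of 9.69 to 9.92 and 8.92 to 8.98. With spike-in scaling 1 luminal marker fell, where 1160 of all 23827 probes did. The part of these cell types in the class I and class II values was not tested.

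**Figure D4:**
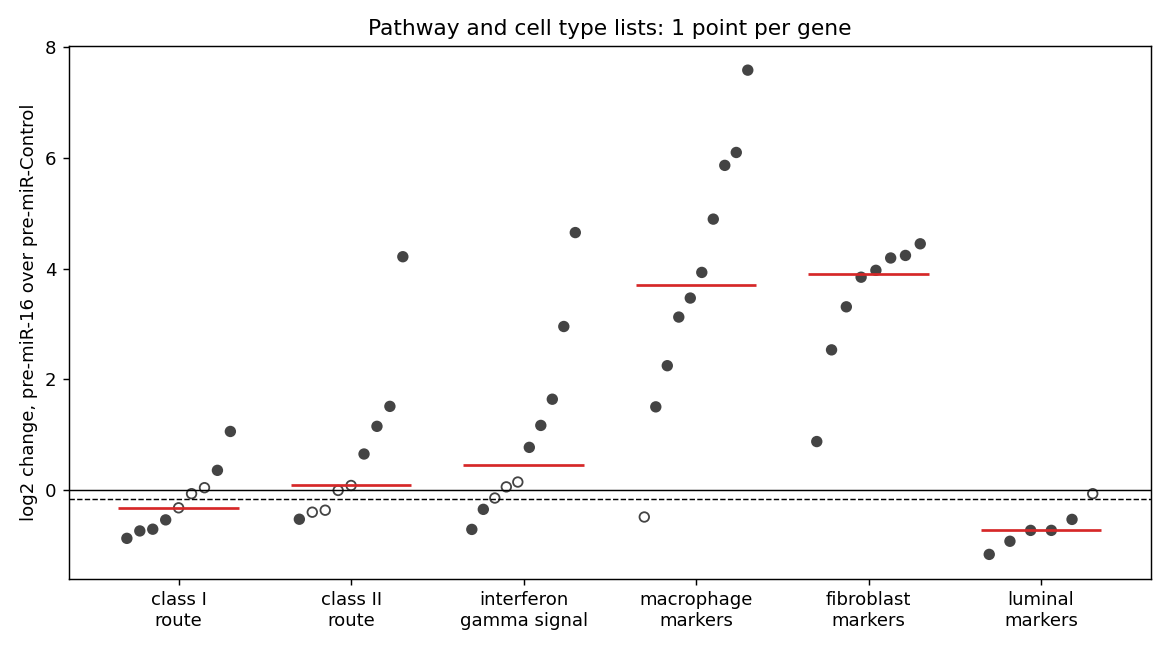
Log2 change of each tested gene in 3 pathway lists and 3 cell type lists, 1 point per gene, filled where called, with red bars at the list medians and a dashed line at the median of all tested probes (-0.16). The macrophage and fibroblast medians are 3.70 and 3.91 here, 4.10 and 4.31 with spike-in scaling, and 1.96 and 3.76 under normexp background correction. Csf1r, a macrophage marker, lies at -0.48. The falls of the class I route (median -0.32 here, 0.09 with spike-in scaling) depend on the scaling.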

How the data were processed

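Total RNA of the 6 cultures was labelled with Cy3 and hybridised to Agilent mouse arrays. The deposited scanner files hold, per the file headers, a processed intensity for each spot from Agilent Feature Extraction 9.5.3.1: background was subtracted, trends across the array were removed and dim spots got a replacement value. Nothing was normalized between arrays. The deposited series matrix holds log2 values by the authors, of a normalization not given in the sources used here, with column medians from 6.79 to 6.81. The matrix columns of the first and second pre-miR-16 replicate each match the other's scanner file (Spearman 0.999 against 0.985), so it served only as an alternative, within 1 group unaffected by the order.

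R 4.3.3 was used, with tables read by data.table (version 1.17.8). Control spots and outlier spots (74 to 113 per array) were left out, spots of a probe were averaged on the log2 scale and arrays were scaled by subtracting their 75th percentile. A probe was tested where a share of 0.5 or more of its spots stood well above background in all 3 replicates of a group; 23827 were, 45 of them members. Groups, taken from the labels, were compared per probe with lmFit and eBayes in limma 3.58.1, and p-values were adjusted by Benjamini-Hochberg over all tested probes. An exact test of 3 against 3 arrays could not give p under 0.1. A gene is represented by its tested probe with the highest mean. Values on every array are given for classical class I, class II, loading and co-stimulation genes, and for the 6 nonclassical class I genes with the smallest p and the 3 with the largest. Members, lists and these rules were chosen with earlier results of these data known, and the lists have no test of their own. Summed levels are log2 of the sum of a list's signals. The result of 1 cell type marker, and the list sum that holds it, are not reported here.

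Coordinates of probes are those of the files (mm7). RefSeq names, 32 of 46 promoter windows and the microRNA are from GRCm38.p6 tables. Alternatives were quantile, spike-in and matrix scaling, normexp with offset 50, other filters, the mean of a gene's probes, other eBayes settings, slide or replicate number as a block, and each array left out. The code was tested on simulated data. Matrix columns without a sample numbered 0.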

Additional observations from a re-analysis of the deposited data

How the results depend on the processing

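The count of class I genes called (13 of 15) was 7 with quantile normalization, 0 with spike-in scaling and 4 with slide as a block. It was 5 of 25 with no filter on dim probes, and 5 to 14 when 1 array was left out. The share of all probes called was 44.6% in the main fit, and 45.1%, 28.2% and 30.9% in the alternatives first named, in that order. It was 19.3% with no filter and 29.8% to 50.8% with 1 array left out. The class I median (-0.49) was -0.081 with spike-in scaling and -0.54 to -0.41 when 1 array was left out. H2-M3 turned from -0.32 to 0.088 with spike-in scaling. The class II median (1.51) was 1.91 with spike-in scaling, 0.31 with the series matrix values, 0.25 under normexp, and 0.017 both without the filter and with probes above background on all 6 arrays; leaving out 1 array gave 1.32 to 1.66. The class II count (3) was 2 or 3 throughout. Of the other members, 2 were called, against 1 without the filter, 4 with the mean of a gene's probes (B2m and Cd80 beside Cd1d1 and Tap2) and 1 with slide as a block, and 1 to 4 when 1 array was left out. With slide as a random block, eBayes with trend and robust, and normexp, the counts stayed between 13 and 14 for class I.

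The labels give both groups replicate numbers 1 to 3, but same-numbered arrays did not deviate together (correlations of -0.087, -0.042 and -0.002), so the numbers were not taken as pairs. With replicate number as a block, 7 class I genes and 1 other member were called, and 34.7% of all probes in place of 44.6%.

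Dim probes set the limit for class II: 5 of its 9 genes were never well above background, and bounds such as that of H2-DMb1 depend on the background correction. The cause of each difference between settings was not tested.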
